A study of Mus musculus with 9 samples.

Results

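Interferons induce large families of GTPases that attack intracellular microbes, and 10 of these genes were examined in mouse colonic mucosa. The genes were 7 guanylate-binding proteins (Gbp2, Gbp3, Gbp5, Gbp6, Gbp7, Gbp8 and Gbp9) and 3 immunity-related GTPases (Igtp, Irgm1 and Iigp1). They were taken by gene name, by a rule that sets no threshold on their values, though with earlier results of these data known, and each name matched 1 row of a table of 54146 genes. All 10 passed the filter on low values (in at least 4 mice, a normalized count of 10 or more), as did 14410 genes in all.

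The RNA came from the colonic mucosa of 9 C57BL/6J mice at 15 wk of age, with 1 library per mouse. The control group was 5 ApcMin/+ mice, which carry a germline Apc mutation that gives rise to intestinal adenomas. The other group was 4 ApcMin/+; p16cis/cis mice, which carry the same Apc mutation and, on both p16 alleles, a knock-in cis-element that brings DNA methylation to the p16 promoter. The study took the RNA from colonic crypts, and the knock-in is present in every cell of the mouse, so the values are averages over the cells of the preparation.

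Guanylate-binding proteins are dynamin-related GTPases that assemble on the vacuoles of intracellular parasites and on the surface of cytosolic bacteria, break these membranes and help inflammasomes to form. Immunity-related GTPases are smaller. Irgm1 and Igtp (also known as Irgm3) sit on the cell's own membranes and keep effectors such as Iigp1 (also known as Irga6) inactive there, so that the effectors load onto foreign vacuoles instead. Both families are classic targets of IFN-γ, and in the gut they are made by epithelial cells as well as by immune cells.

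The genes lie in clusters. In the GENCODE M21 annotation of GRCm38, Gbp2 (ENSMUSG00000028270.12, chr3:142620602-142638008), Gbp3 (ENSMUSG00000028268.14, chr3:142560026-142573209), Gbp5 (ENSMUSG00000105504.4, chr3:142493978-142522344) and Gbp7 (ENSMUSG00000040253.15, chr3:142530342-142550149) are neighbors on the plus strand of chromosome 3. Gbp6 (ENSMUSG00000104713.4, chr5:105270702-105293698), Gbp8 (ENSMUSG00000034438.16, chr5:105014150-105139540) and Gbp9 (ENSMUSG00000029298.15, chr5:105077630-105139539) lie on the minus strand of chromosome 5. Irgm1 (ENSMUSG00000046879.7, chr11:48861968-48871683, minus strand) and Igtp (ENSMUSG00000078853.8, chr11:58199556-58207591, plus strand) are on chromosome 11, and Iigp1 (ENSMUSG00000054072.11) lies apart from these clusters. All 10 are protein-coding genes.

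RefSeq promoter windows of GRCm38.p6 (250 bases before to 50 bases after the transcription start) were examined for 6 of the 10 genes, namely Gbp2, Gbp3, Gbp5, Gbp7, Irgm1 and Igtp. The promoters of the other genes were not searched. A pair of short motifs through which interferons act was searched in them. The interferon-stimulated response element (ISRE), which IRF factors bind, was searched on both strands as GAAA, any 2 bases and GAAA again. The gamma-activated site (GAS), which STAT factors bind, was searched as TTCNNNGAA, a sequence that reads the same on both strands. All 6 genes held ISRE letters, compared with 3.443% of the 32851 promoter windows, and 3 of them (Gbp5, Gbp7 and Igtp) also held GAS letters, which 8.298% of all windows held. Both motifs were in 0.4536% of all windows. The stretches that hold most of these matches are shown because they carry the feature these 6 genes share. Each is written on the gene's own strand, 5′ to 3′, with ISRE and GAS letters in capitals (TTTC, 2 bases and TTTC is the ISRE read from the other strand).
Gbp2: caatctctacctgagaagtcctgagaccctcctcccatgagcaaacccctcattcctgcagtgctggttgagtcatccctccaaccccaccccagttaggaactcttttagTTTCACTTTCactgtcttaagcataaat
Gbp3: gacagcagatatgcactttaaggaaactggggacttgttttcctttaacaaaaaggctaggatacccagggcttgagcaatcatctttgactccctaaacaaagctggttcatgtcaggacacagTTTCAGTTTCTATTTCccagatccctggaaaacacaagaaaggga
Gbp5: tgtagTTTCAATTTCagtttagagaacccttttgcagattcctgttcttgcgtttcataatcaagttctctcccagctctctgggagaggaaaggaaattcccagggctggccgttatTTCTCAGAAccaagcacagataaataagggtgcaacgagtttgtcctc
Gbp7: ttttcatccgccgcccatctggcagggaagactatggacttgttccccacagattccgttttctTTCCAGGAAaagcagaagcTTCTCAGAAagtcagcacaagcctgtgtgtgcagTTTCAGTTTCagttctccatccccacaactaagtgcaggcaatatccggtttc
Irgm1: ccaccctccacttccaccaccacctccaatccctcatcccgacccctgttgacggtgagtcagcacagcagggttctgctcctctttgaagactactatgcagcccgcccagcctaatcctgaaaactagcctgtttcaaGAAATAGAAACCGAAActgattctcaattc
Igtp: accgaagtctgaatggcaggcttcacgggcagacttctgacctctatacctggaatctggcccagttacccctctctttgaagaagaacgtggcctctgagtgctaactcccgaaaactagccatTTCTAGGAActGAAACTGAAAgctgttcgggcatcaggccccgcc
They are chr3:142620493-142620631, chr3:142559874-142560043, chr3:142496764-142496929 and chr3:142530166-142530335 on the plus strand, chr11:48871421-48871590 on the minus strand, and chr11:58199386-58199555 on the plus strand.

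The ISRE lay close to the RefSeq start in 5 of the 6 genes. It spanned bases -59 to -50 in Gbp2, -53 to -44 in Gbp7 and -34 to -25 in Igtp, counted from the transcription start. In Gbp3 (-45 to -36 and -39 to -30) and Irgm1 (-30 to -21 and -24 to -15) 2 matches overlapped, so that each is 1 run with a repeated core. Gbp5 was the exception, with its ISRE at -165 to -156 and GAS matches at -245 to -237, outside the stretch printed, and at -52 to -44. In Gbp7 the GAS matches were at -106 to -98 and -87 to -79, and in Igtp the GAS at -45 to -37 stood directly before the ISRE. A second RefSeq start of Gbp3 had neither motif in its window. GENCODE starts the first exon of a coding Gbp2 transcript at base -61 from the RefSeq start, so there the ISRE falls inside the annotated exon. A match describes the letters and does not show that a factor binds.

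**Figure D1:**
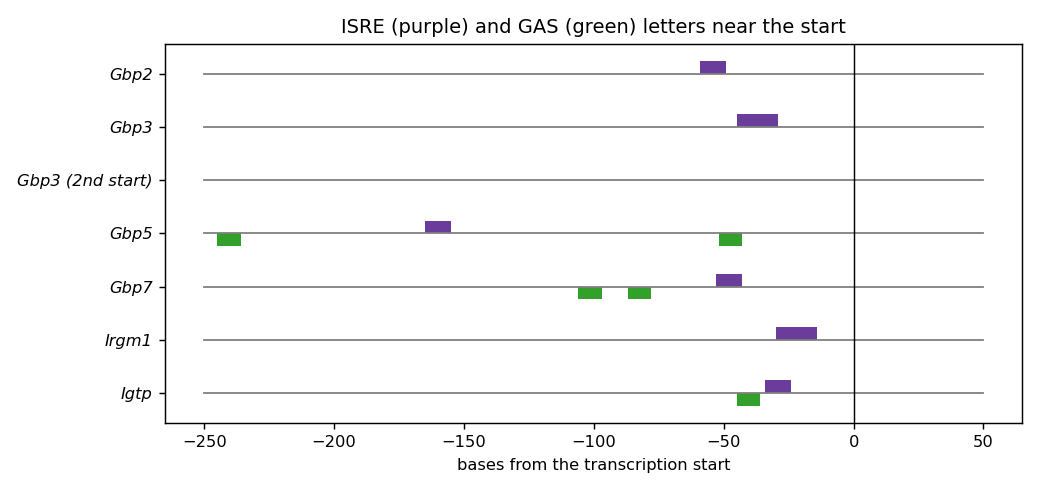
Positions of ISRE (purple) and GAS (green) letters in the RefSeq promoter windows of 6 GTPase genes, with the distance from the transcription start in bases on the x axis and 1 row per start. ISRE letters lie within the last 60 bases before the start in Gbp2, Gbp3, Gbp7, Irgm1 and Igtp and farther away in Gbp5, while the second start of Gbp3 has none.

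The deposited values are counts scaled by 1 size factor per mouse, called normalized counts here, and whole reads could be recovered from them. The libraries held 13523500 to 17885918 reads on genes. The mitochondrial share of reads was 8.74% to 15.6% in ApcMin/+ mice and 19.3% to 29.8% in ApcMin/+; p16cis/cis mice. Cdkn2a, the gene of p16, was listed at 0 in all 9 mice, so it does not check the genotype. Of the 10 epithelium markers, all were detected in every mouse, with summed normalized counts of 313634 to 529942. One library stood apart. In ApcMin/+ replicate 4 the summed normalized count of 10 T and NK cell markers was 80.1, against 649 to 1204 in the other ApcMin/+ mice and 422 to 586 in the ApcMin/+; p16cis/cis mice, and its epithelium sum of 529942 was the highest. Counts that lead a result are therefore also given without this mouse.

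Levels of the GTPases, compared per kilobase of merged exon, differed widely between the genes. Averaged over the 9 mice, the normalized count per kb was 188 for Irgm1 and 186 for Igtp, the regulatory immunity-related GTPases. It was 94.6 for Gbp2, 40.5 for Gbp3, 37.7 for the effector Iigp1 and 27.9 for Gbp7. The remaining genes were lower still, at 12.2 for Gbp8, 4.98 for Gbp9, 3.09 for Gbp6 and 2.85 for Gbp5. The order and the closeness of neighbors depend on the length used. Merged exons spanned 5810 bases for Irgm1 and 5823 for Iigp1, where 1 transcript of each had 2259 and 3121. For Igtp both lengths were 2022 bases. With merged exons, several neighbors in this order were not separated. Irgm1 was above Igtp in 5 of 9 mice, and the same count of 5 of 9 held for Gbp3 over Iigp1, for Iigp1 over Gbp7 and for Gbp6 over Gbp5, with a mean log2 ratio of the per-kb levels smaller than its SD between mice in each of these pairs. Igtp was above Gbp2 in 8 of 9 mice, and Gbp2 above Gbp3, Gbp7 above Gbp8 and Gbp8 above Gbp9 in 9 of 9.

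**Figure D2:**
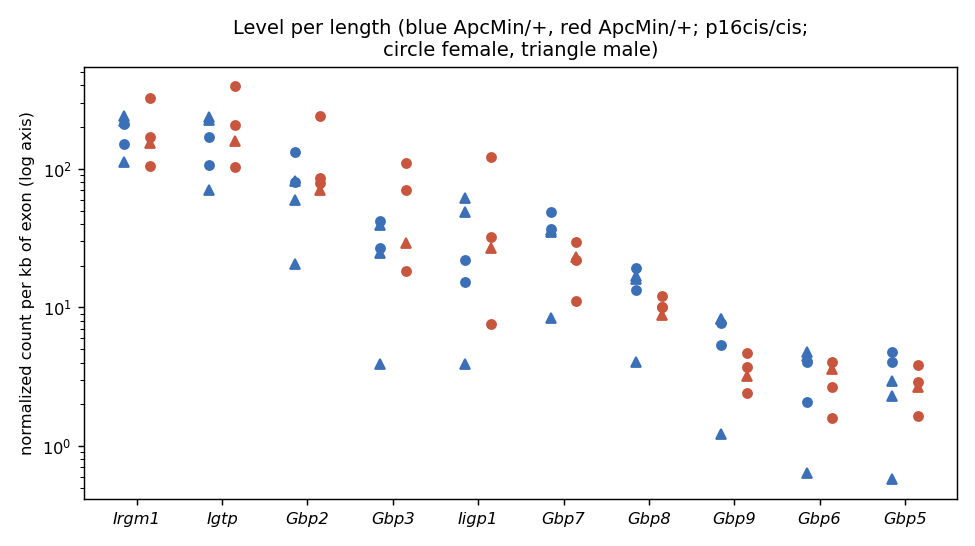
Normalized count per kb of merged exon (log axis) of the 10 GTPases in each mouse, ordered by the mean over 9 mice, with ApcMin/+ mice in blue and ApcMin/+; p16cis/cis mice in red (circles female, triangles male). Irgm1 and Igtp lead, and within each gene the mice of both genotypes cover overlapping ranges.

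Reads can be shared between near-identical members of these families, and this bears on some levels. Of the 50-base stretches of the Gbp6 transcript examined (GENCODE), 90.2% also occurred in transcripts of another gene (Gm43302, which overlaps it on the same strand), so the Gbp6 value is uncertain. The share was 21.2% for Gbp8, 12.8% for Gbp7, 12.3% for Igtp and 9.56% for Gbp9, and below 5% for the other 5 genes. Gbp8 and Gbp9 also overlap each other and Gbp4 in the annotation.

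The genotype comparison asked whether methylation at p16 in Apc-mutant mice goes with a change in the mucosa's RNA. For these GTPases no difference between the genotypes passed the test. With limma over all 14410 genes, 0 of the 10 were called (over 2-fold and below 0.05 after Benjamini-Hochberg adjustment of p), where 3.48% of all genes were called. Without the fold threshold it was 0 of 10 against 16.9% of all genes, and 0 of 10 also had an unadjusted p under 0.05. In 0 of 10 did the values of the genotypes fail to overlap, against 16.2% of all genes. The log2 fold change of ApcMin/+; p16cis/cis over ApcMin/+ was above 0 in 6 and below 0 in 4, with a median of 0.11 beside -0.0041 over all genes tested.

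The intervals were wide. Within genotypes, the SD of log2(normalized count + 1) was 0.56 (Irgm1) to 1.59 (Iigp1) for the 10 genes, where the median gene had 0.26. All 10 lay above that median, and Irgm1, the steadiest of them, was still more variable than 84.1% of the genes tested. Without ApcMin/+ replicate 4 the SDs were 0.20 (Gbp8) to 1.33 (Iigp1) against a median gene of 0.23, and 9 of 10 lay above it, the exception being Gbp8. Iigp1, Gbp3, Igtp and Gbp2 then still exceeded 99.2%, 96.3%, 91.8% and 91.6% of the genes.

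The chromosome 3 genes are described first. Gbp2, a prenylated GTPase that targets parasite vacuoles and bacteria, had normalized counts of 330, 150, 207, 52.1 and 202 in ApcMin/+ replicates 1 to 5 and 177, 215, 610 and 197 in ApcMin/+; p16cis/cis replicates 1 to 4. The higher mean of the second group (299.9 ± 207, SD, n = 4, against 188 ± 101, SD, n = 5) came with 1 mouse far above the rest, and the medians were 206 and 202. The log2 fold change was 0.69 (SE 0.48, 95% interval -0.37 to 1.74, limma adjusted p = 0.353).

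Gbp3, its neighbor in the cluster, had normalized counts of 87.0, 127, 81.0, 12.7 and 137 in ApcMin/+ mice and 96.0, 231, 358 and 59.5 in ApcMin/+; p16cis/cis mice. Replicates 2 and 3 of the second group were above every ApcMin/+ mouse, and replicate 4 was below 4 of the 5. This was the highest fold change of the 10 genes, at 1.07 on the log2 scale (SE 0.67, 95% interval -0.39 to 2.53, limma adjusted p = 0.291), and it did not pass the test.

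Gbp7, which takes part in assembling the oxidative burst, went the other way. Its normalized counts were 274.5, 203, 197, 47.0 and 207 in ApcMin/+ mice and 129, 123, 165 and 62.7 in ApcMin/+; p16cis/cis mice. Each of the 4 was below each ApcMin/+ mouse other than replicate 4, which was the lowest of all 9. Over 9 mice the log2 fold change was -0.50 (SE 0.45, 95% interval -1.49 to 0.48, limma adjusted p = 0.476). Without ApcMin/+ replicate 4 it was -0.94 (SE 0.26, 95% interval -1.51 to -0.37, limma adjusted p = 0.0222).

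Gbp5, known for promoting NLRP3 inflammasome assembly, was scarce. Its normalized counts were 26.8, 15.2, 19.5, 3.81 and 31.8 in ApcMin/+ mice and 17.7, 19.1, 25.5 and 10.97 in ApcMin/+; p16cis/cis mice, resting on 3 to 28 reads. The groups overlapped fully, with a log2 fold change of 0.12 (SE 0.53, limma adjusted p = 0.900).

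The chromosome 5 genes were lower in level than the chromosome 3 genes other than Gbp5. Gbp9 had normalized counts of 27.9, 42.8, 42.9, 6.36 and 39.7 in ApcMin/+ mice and 16.4, 19.1, 24.04 and 12.5 in ApcMin/+; p16cis/cis mice, resting on 5 to 45 reads. As with Gbp7, replicate 4 was the only ApcMin/+ mouse within or below the range of the other genotype. The log2 fold change was -0.58 over all mice (SE 0.51, limma adjusted p = 0.462) and -1.06 without that mouse (SE 0.30, 95% interval -1.72 to -0.41, limma adjusted p = 0.0245).

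Gbp8 had normalized counts of 45.8, 55.1, 57.6, 14.0 and 65.8 in ApcMin/+ mice and 30.3, 41.5, 34.6 and 34.5 in ApcMin/+; p16cis/cis mice. Its pattern was that of Gbp9, which it overlaps, with a log2 fold change of -0.27 (SE 0.40, limma adjusted p = 0.678) that became -0.65 without ApcMin/+ replicate 4 (SE 0.23, limma adjusted p = 0.0572). Gbp6, whose reads are not unique, had 12.3, 26.6, 28.3, 3.81 and 23.8 normalized counts in ApcMin/+ mice and 21.47, 15.95, 24.04 and 9.40 in ApcMin/+; p16cis/cis mice. These overlapped fully, with a log2 fold change of 0.09 (SE 0.54, limma adjusted p = 0.929).

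Among the immunity-related GTPases, Irgm1, a regulator on the cell's own membranes that is also linked to autophagy, had the narrowest range. Its normalized counts were 883, 1409, 1295, 647 and 1225 in ApcMin/+ mice and 898, 992, 1892 and 614 in ApcMin/+; p16cis/cis mice. The means were nearly equal, at 1092 ± 317 (SD, n = 5) and 1099 ± 552 (SD, n = 4). The log2 fold change was -0.06 (SE 0.30, 95% interval -0.71 to 0.59, limma adjusted p = 0.917). The interval leaves room for a moderate change in either direction.

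Igtp, the other regulator, had normalized counts of 216, 452, 481, 142 and 342 in ApcMin/+ mice and 322, 418, 798 and 209.9 in ApcMin/+; p16cis/cis mice. The lowest mouse was ApcMin/+ replicate 4 and the highest ApcMin/+; p16cis/cis replicate 3, and the log2 fold change was 0.39 (SE 0.41, limma adjusted p = 0.546). Iigp1, the effector that strips vacuole membranes, varied most, with 88.2, 361, 285, 22.9 and 127 normalized counts in ApcMin/+ mice and 155, 187, 708 and 43.9 in ApcMin/+; p16cis/cis mice. Its highest mouse was 30.9-fold above its lowest, against 3.08-fold for Irgm1, and its log2 fold change of 0.51 had the widest interval (SE 0.82, 95% interval -1.28 to 2.29, limma adjusted p = 0.707).

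**Figure D3:**
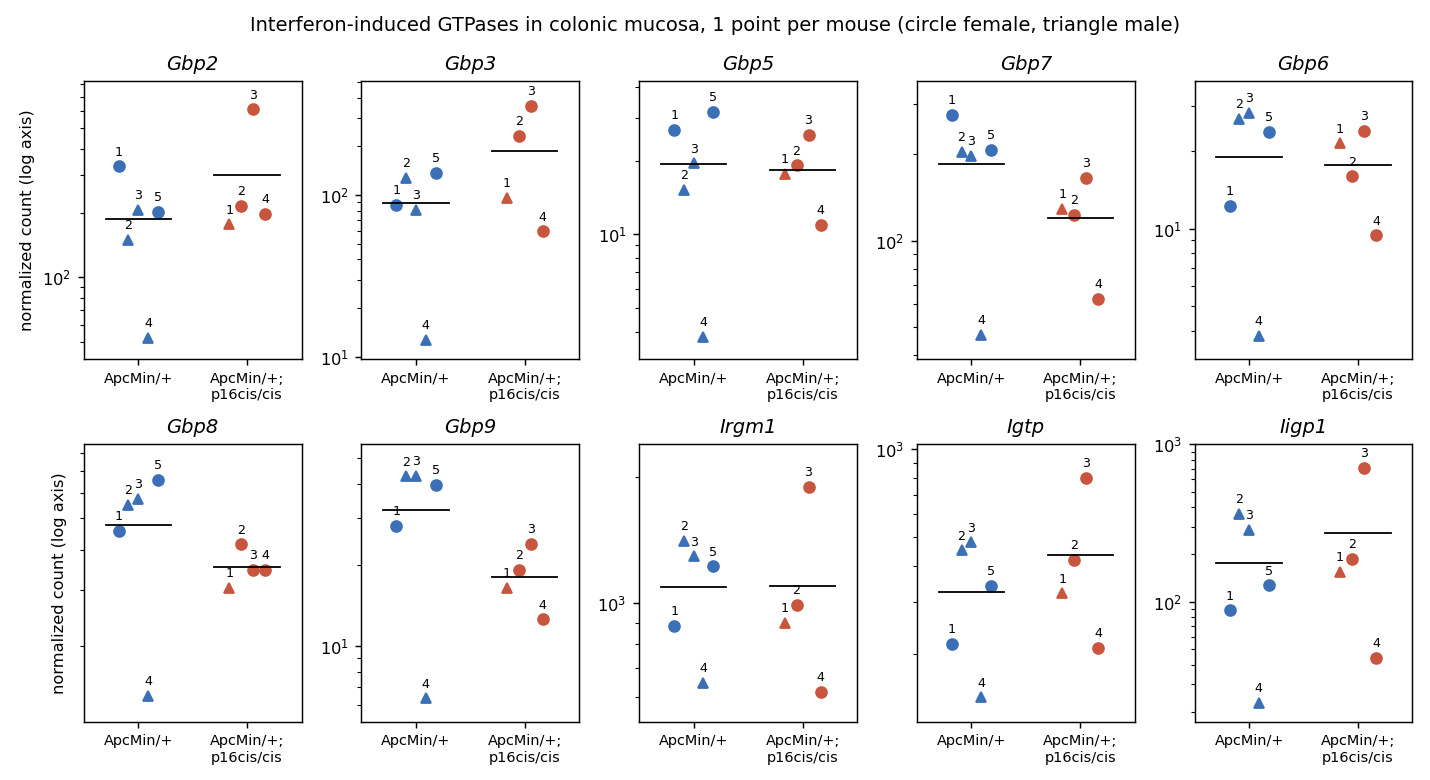
Normalized count (log axis, own scale per gene) of each GTPase in each mouse, with the replicate number above the point, circles for females, triangles for males and a line at the group mean. ApcMin/+ replicate 4 is the lowest point in 9 of the 10 genes, and ApcMin/+; p16cis/cis replicate 3 the highest in 5.

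The same mice recurred across the genes. ApcMin/+ replicate 4 was lowest in 9 of 10 genes, the exception being Irgm1, where ApcMin/+; p16cis/cis replicate 4 was lower. ApcMin/+; p16cis/cis replicate 3 was highest in 5 (Gbp2, Gbp3, Igtp, Irgm1 and Iigp1). The mean deviation of the 10 genes from their own means over 9 mice, on the log2 scale, was 0.08, 0.47, 0.46, -1.76 and 0.42 in ApcMin/+ replicates 1 to 5. It was -0.07, 0.19, 0.92 and -0.72 in ApcMin/+; p16cis/cis replicates 1 to 4. So each genotype held 1 mouse well below 0, and the highest mouse was in the ApcMin/+; p16cis/cis group.

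Over the 9 mice, Pearson's r between the log2 values of 2 of these genes was 0.51 to 0.98 in the 45 pairs, with a median of 0.76. Without ApcMin/+ replicate 4 and ApcMin/+; p16cis/cis replicate 4, the mice farthest from the median of the mean deviation, the median was 0.18, the range was -0.44 to 0.96 and 31 of 45 were positive. These 2 mice were picked on the same genes, so a lower r without them follows in part from the choice. The 3 immunity-related GTPases were still close to each other in the 7 mice, with r of 0.96 for Igtp and Iigp1, 0.89 for Irgm1 and Iigp1 and 0.88 for Igtp and Irgm1. The libraries share depth and cell makeup across genes, and these values are descriptions.

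No difference by sex passed the test. With sex beside genotype in the limma fit, the log2 difference of males minus females was -0.98 to 0.13 for the 10 genes, and 0 of 10 had an adjusted p under 0.05 (lowest adjusted p = 0.992), where 0.0486% of all genes did. With 4 males, of which 3 were ApcMin/+, this term was poorly determined.

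Leaving out ApcMin/+ replicate 4 moved the whole group downward. The median log2 fold change of the 10 genes became -0.28, beside -0.0056 over all genes, and 7 of 10 were below 0. That mouse was a control and the lowest in 9 of 10 genes, so the downward direction follows from leaving it out. With ApcMin/+; p16cis/cis replicate 4 left out instead, the median was 0.34 and 0 of 10 had an adjusted p under 0.05. Without ApcMin/+ replicate 4, Gbp7 and Gbp9 fell in ApcMin/+; p16cis/cis mice at an adjusted p under 0.05. Gbp9, which rests on 5 to 45 reads over the 9 mice, also passed the fold threshold. These 2 of 10 compare with 24.2% of all genes at an adjusted p under 0.05 in the same 8 mice, so the share among the GTPases was near the background. For Gbp7, Gbp8 and Gbp9 each ApcMin/+; p16cis/cis mouse was then below each ApcMin/+ mouse, which held for 13.6% of all genes in these 8 mice, and Gbp8 and Gbp9 are not independent since they overlap. Gbp2 and Gbp3 had log2 fold changes of 0.29 and 0.48 (limma adjusted p = 0.592 and 0.469). Gbp5 and Gbp6 changed sign, to -0.34 and -0.36, and Iigp1 to -0.09, none past the threshold.

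**Figure D4:**
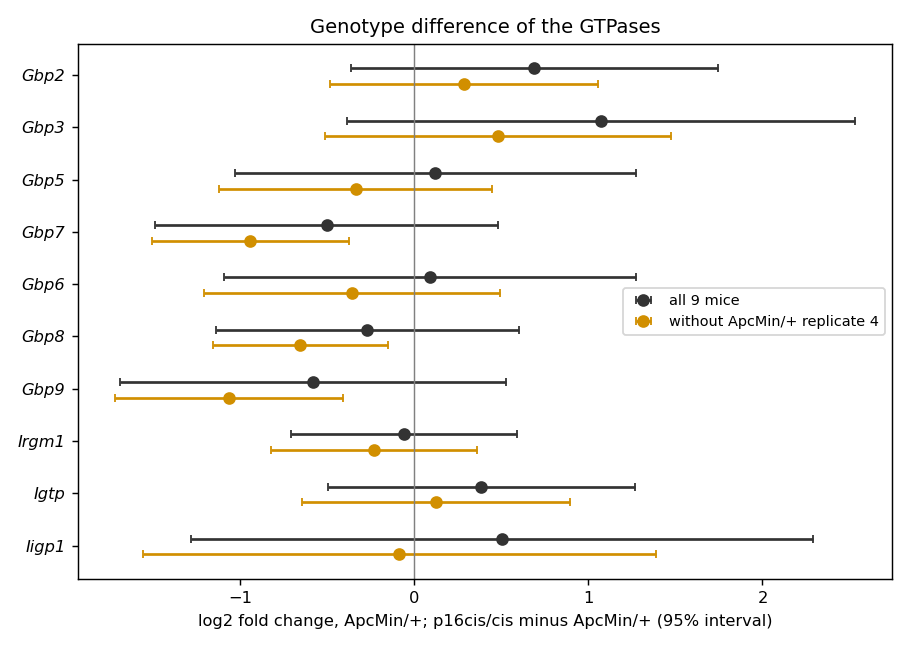
Log2 fold change of ApcMin/+; p16cis/cis over ApcMin/+ for each GTPase with its 95% interval from limma, in all 9 mice (black) and without ApcMin/+ replicate 4 (orange). All 10 black intervals include 0, and the orange intervals of Gbp7, Gbp8 and Gbp9 lie below 0.

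Ratios of 2 normalized counts within a mouse do not depend on its size factor, and they were examined after the values had been seen. Overlap and tests used differences of log2(normalized count + 1), which depend on the size factor somewhat at low counts. Gbp3 over Gbp7 was 0.317, 0.626, 0.411, 0.270 and 0.665 in ApcMin/+ mice and 0.745, 1.88, 2.16 and 0.950 in ApcMin/+; p16cis/cis mice, without overlap and with ApcMin/+ replicate 4 next to replicate 1. Gbp2 over Gbp7 was 1.203, 0.738, 1.05, 1.11 and 0.978 against 1.37, 1.75, 3.69 and 3.15, again without overlap. Of the 45 ratios of 2 members, 4 did not overlap between genotypes (8.89%), while 14.6% of all ratios of 2 tested genes did not. Each of the 4 had p = 0.00794 by an exact two-sided permutation test, the smallest that 5 mice against 4 allow, and 0 of 45 passed after adjustment over the pairs (lowest adjusted p = 0.0893). The ratios therefore did not set these genes apart from others.

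Some cell markers moved with the GTPases in the mouse that stood apart, ApcMin/+ replicate 4, and others did not. Its T and NK cell and stroma sums, 80.1 and 141, were the lowest of the ApcMin/+ mice. Its neutrophil and B and plasma cell sums, 1045 and 5203, were the highest of that group, mostly from Ly6g (1017) and Sdc1 (5167). Its epithelium sum was the highest, while the epithelium marker Lgr5 (165) was the lowest of the 9 mice there. The leukocyte marker Ptprc had normalized counts of 276, 457, 227, 30.5 and 750 in ApcMin/+ mice and 99.8, 153, 162 and 168 in ApcMin/+; p16cis/cis mice. ApcMin/+ replicate 4 was lowest, while ApcMin/+; p16cis/cis replicate 4, the other mouse with low GTPase values, was the highest of its group. In a bulk sample fewer cells of a type and less RNA per cell cannot be told apart.

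Across genotypes, the marker counts that follow are those with a limma adjusted p under 0.05. Of all genes tested, 16.9% passed that threshold with all mice and 24.2% without ApcMin/+ replicate 4, in both directions. The T and NK list had 8 of 10 markers tested. Of these 0 passed with all mice and 4 were lower in ApcMin/+; p16cis/cis mice without ApcMin/+ replicate 4. Of the 7 B and plasma cell markers, 1 was lower with all mice and 4 without that mouse. The summed normalized count was 4111 to 5203 in ApcMin/+ mice and 3074 to 4173 in the other genotype, most of it from Sdc1, which epithelium also makes. Of the 10 macrophage and dendritic cell markers, 9 were tested, 1 was lower with all mice and 3 without that mouse. Their summed count was 1117 to 1999.6 in ApcMin/+ mice and 1566 to 1620 in ApcMin/+; p16cis/cis mice, most of it Cd14. The log2 fold change was above 0 in 2 of the tested markers (Cd68 and Cd14) and below 0 in 7. The macrophage marker Adgre1 did not pass the filter. It was near the floor in both groups, at 1.90 to 6.70 in ApcMin/+ mice and 0 in all 4 ApcMin/+; p16cis/cis mice. Of the 10 stroma markers, 8 were tested, 1 was lower with all mice and 5 without that mouse, and the sum was 141 to 759 against 105 to 255. Of the 6 neutrophil markers only Ly6g passed the filter, and it did not pass the test, while the sum was 463 to 1045 in ApcMin/+ mice and 362 to 1659 in ApcMin/+; p16cis/cis mice. Of the 10 epithelium markers 1 was lower, the chloride exchanger Slc26a3 (log2 fold change -1.23, limma adjusted p = 0.00848). The part of these cell markers in the lower Gbp7, Gbp8 and Gbp9 values was not tested.

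The rest of the pathway was read from lists chosen by function. Of 19 further interferon-induced GTPases, 9 passed the filter. One rose, Mx1, a dynamin-like GTPase, with 116, 112, 110, 24.2 and 243 normalized counts in ApcMin/+ mice and 173, 408, 338 and 374 in ApcMin/+; p16cis/cis mice (log2 fold change 1.65, SE 0.51, limma adjusted p = 0.0458). Its call was lost with DESeq2, with sex as a covariate and in 6 of the 9 fits that left out 1 mouse. The median log2 fold change of the 9 was -0.11, and -0.52 without ApcMin/+ replicate 4, where Mx1 was again the 1 gene that passed. Of all genes tested, 16.9% passed with all mice and 24.2% without that mouse. The relatives closest to the genes described here had differences within the spread between mice, with log2 fold changes of 0.03 for Irgm2 and -0.38 for Gbp4 (limma adjusted p = 0.967 and 0.714). With that mouse left out these were -0.26 and -0.96 (limma adjusted p = 0.592 and 0.0822).

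Of 16 ligands, receptors and kinases of the interferon pathways, 10 passed the filter and 0 passed the test (median log2 fold change -0.02), beside 16.9% of all genes. Without ApcMin/+ replicate 4, 0 passed (median 0.03), beside 24.2% of all genes. Ifng itself had normalized counts of at most 6.38 in any mouse, so a difference in it was not detectable at this depth. The largest differences among those tested were in Il18, a cytokine that stimulates IFN-γ production (log2 fold change 0.35, SE 0.25, limma adjusted p = 0.362), and in the kinase Jak1 (-0.28, SE 0.099, limma adjusted p = 0.0748).

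Of 17 transcription factors and inhibitors of the response, 1 rose, Batf2, with 570, 425, 447, 492 and 425 normalized counts in ApcMin/+ mice and 647, 1040.0, 1264 and 978 in ApcMin/+; p16cis/cis mice (log2 fold change 1.02, SE 0.17, limma adjusted p = 0.0049). This 1 of 17 stands beside 16.9% of all genes tested, in both directions. The 17 had a median log2 fold change of 0.32. Without ApcMin/+ replicate 4 the median was 0.078, and 3 passed, Batf2, Stat2 and Socs1, beside 24.2% of all genes. Irf1, a factor that carries the IFN-γ signal to GTPase promoters, had a log2 fold change of -0.0018 (SE 0.17, limma adjusted p = 0.995). Of 23 other targets of IFN-γ, 4 rose and 0 fell, with a median log2 fold change of 0.42. They were Psmb8, an immunoproteasome subunit (1.10, limma adjusted p = 0.0317), Tapbp, which loads peptides onto MHC class I (0.40, adjusted p = 0.0263), Ifitm3, which blocks virus entry (1.18, adjusted p = 0.0428), and Zbp1, a sensor of nucleic acids (1.30, adjusted p = 0.0485). These 4 of 23 stand beside 16.9% of all genes tested, in both directions. Without ApcMin/+ replicate 4 the median was 0.26 and 5 passed, the same 4 and Bst2, beside 24.2% of all genes. The difference between these lists and the GTPases was not tested.

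Among genes that act with the GTPases, shares near the 16.9% of all genes passed the test. Of 14 genes for placing the GTPases at vacuoles, 13 were tested, Gabarap rose (log2 fold change 0.54, SE 0.16, limma adjusted p = 0.0433) and Atg12 fell (-0.34, SE 0.087, limma adjusted p = 0.0229). Both belong to the ubiquitin-like conjugation systems of autophagy. Of 11 inflammasome genes, 8 were tested and Casp4, encoding the mouse caspase-11 that senses bacterial lipopolysaccharide, rose by 0.70 on the log2 scale (SE 0.16, limma adjusted p = 0.0147). Of 5 enzymes that prenylate proteins and finish their ends, Icmt, the methyltransferase of the last step, fell by 0.41 on the log2 scale (SE 0.10, limma adjusted p = 0.0210). In the fit without ApcMin/+ replicate 4 the count was 2 of 13 for the vacuole genes, 3 of 8 for the inflammasome genes (Casp4, Gsdmd and Pycard rose) and 1 of 5 for the prenylation enzymes, beside 24.2% of all genes.

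**Figure D5:**
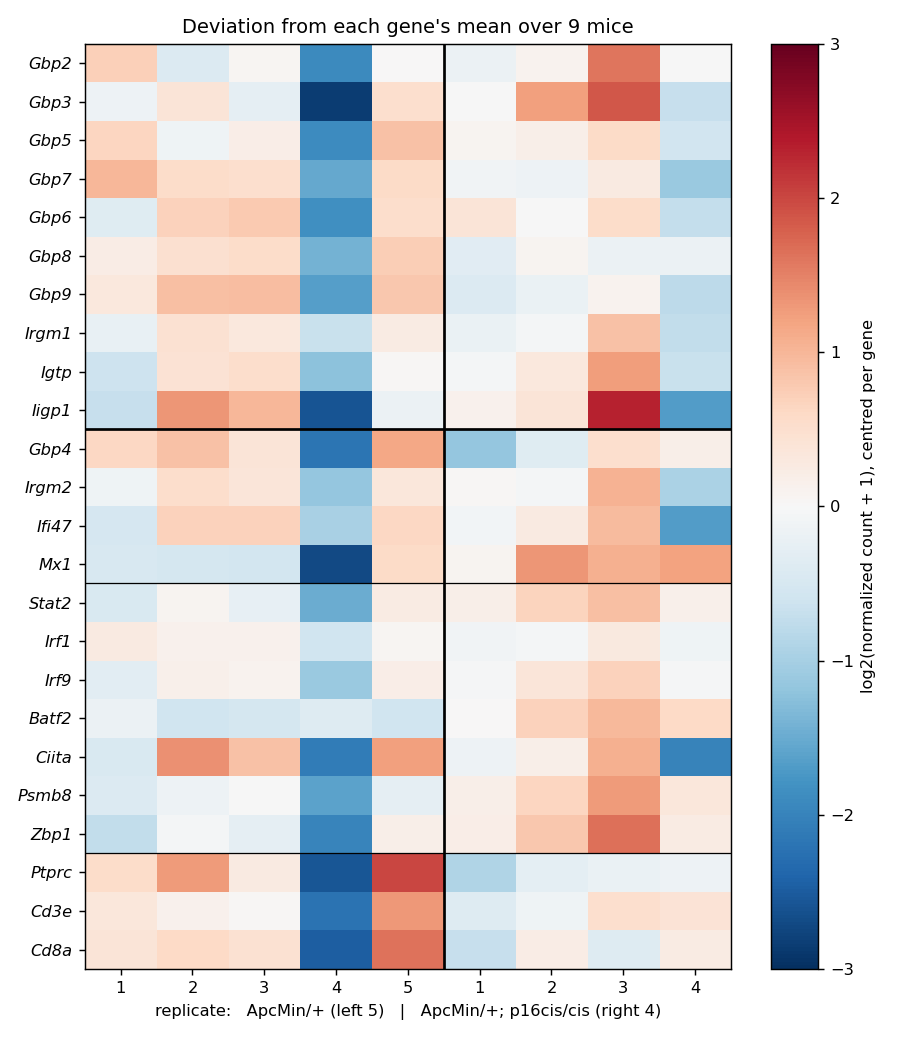
Deviation of log2(normalized count + 1) from each gene's mean over 9 mice, for the 10 GTPases (top), 4 of their relatives, 7 regulators and targets of the interferon response, and 3 lymphocyte or leukocyte markers (bottom), with 1 column per mouse. Columns 4 (ApcMin/+ replicate 4) and 8 (ApcMin/+; p16cis/cis replicate 3) stand out through most of the interferon rows, while the bottom rows are low in column 4 and mixed in column 8.

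The genes most like the GTPases were found by Pearson's r, over the 9 mice, between a gene's log2 values and the mean deviation of the 10 genes. The highest were H2-Q7 (0.99), RP23-14F5.8 (Gm5431 in GENCODE, 0.98), B4galnt4 (0.98), Ddx58 (0.98) and Gm12250 (0.97), followed by Oas3 (0.97), Ddx60 (0.97), Usp18 (0.96), Ifi44 (0.96) and RP24-263E2.7 (0.95). Without the 2 mice farthest from the median, r was 0.57 to 0.96 for these 10 genes, and H2-Q7 was still at 0.96. Gm12250 is itself in the list of further interferon-induced GTPases, so it is a relative of the genes described here. H2-Q7, a nonclassical MHC class I gene, had normalized counts of 81.5, 123, 113, 24.2 and 137 in ApcMin/+ mice and 73.2, 105, 177 and 51.7 in ApcMin/+; p16cis/cis mice, with the same lowest and highest mouse as the mean deviation of the GTPases. The RNA sensor Ddx58 (RIG-I) ran from 182 in ApcMin/+ replicate 4 to 763 in ApcMin/+; p16cis/cis replicate 3. The lowest were Ppp1r21 (-0.93), Cage1 (-0.93), RP23-326O2.2 (-0.93), Auh (-0.92) and Cyp27a1 (-0.92). Cyp27a1, a sterol hydroxylase, had its highest normalized counts, 895 and 678, in the 2 mice with the lowest GTPase values.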

How the data were processed

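Colonic mucosa of 9 mice was profiled by RNA-seq, with 5 ApcMin/+ and 4 ApcMin/+; p16cis/cis mice as the labels give them. Per the labels and the study's methods, libraries followed BGI protocols (rRNA depletion and oligo dT selection), reads from the BGISEQ-500 were aligned with BOWTIE2, quantified with RSEM and normalized with DESeq2. The genome build, annotation and tool versions are not given in the sources used here. The authors deposited signal values, in which every gene count is scaled by 1 size factor per mouse. Dividing by the value of 1 read gave whole reads for 100% of positive values (tolerance 0.01 reads). Of the 54146 identifiers, 54079 were in GENCODE M21 without regard to version.

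Because the values are normalized, the main test was limma 3.58.1 (R 4.3.3, trended variances) on log2(normalized count + 1), which understates fold changes of low genes. It used the 14410 genes with at least 10 in at least 4 mice, genotype alone and Benjamini-Hochberg adjustment. Calls needed an adjusted p under 0.05 and a fold change over 2, the cut-offs that the study states. Its methods name DESeq2 and Bonferroni adjustment, so the calls here rest on another test and a looser adjustment. Count tests of the recovered reads (edgeR 4.0.16, DESeq2 1.42.0) served as alternatives, with other scalings, filters, a pseudocount of 0.1, sex, females only, the mitochondrial share, the replicate block, Bonferroni adjustment and each mouse left out. The fit was tested on simulated data. Replicate numbers name different mice and were not used as pairs.

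The members and lists were chosen with earlier results of these data known. Named genes are the 10 members, the list genes with an adjusted p under 0.05 (up to 5 a list, otherwise the 2 largest differences, given only where a result turns on them), the 10 genes most and 5 least correlated with the members, and Cdkn2a. Others (Irgm2, Gbp4, Ifng, Irf1, Stat2, Socs1, Bst2, Gsdmd, Pycard and the cell markers named) were chosen after their values were seen. Of the listed names, 3 were found by identifier and 1 was not found. Shared sequence was counted as 50-base stretches of GENCODE transcripts. Each mouse is 1 library, and counting error alone limits values that rest on few reads.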

Additional observations from a re-analysis of the deposited data

Results flagged for a closer look

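One value stood apart from its group. Gbp2 in ApcMin/+; p16cis/cis replicate 3 had a normalized count of 610, and its gap to the next of the 4 mice took 0.911 of the group's range, more than Dixon's 95% critical value allows for 4 samples. With 20 groups checked (10 genes in 2 genotypes), chance alone gives about 1 such value, and 1 was found. The mouse was also the highest of the 9 in Gbp3, Igtp, Irgm1 and Iigp1.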

How the results depend on the processing

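The count of GTPases called stayed 0 under edgeR, DESeq2, TMM scaling, both other filters (the stricter kept 7 of the 10 genes), the pseudocount, sex, females only, the mitochondrial share and Bonferroni adjustment. With the replicate block, 1 was called and 1 had an adjusted p under 0.05 (Gbp3, log2 fold change 1.32, limma adjusted p = 0.0398), and 2 other GTPases passed. The numbers do not pair the mice. Same-numbered mice correlated at -0.175 to 0.142 in their deviations from the group means, and 2 of 4 mice correlated best with their own number. Leaving out each mouse gave 0 to 1 called, 0 to 2 at an adjusted p under 0.05 and 0 to 1 other GTPases, and only the fit without ApcMin/+ replicate 4 gave more than 0 calls among the 10. The 1 other GTPase (Mx1) became 0 under DESeq2, sex, females only and the mitochondrial share. Under that last covariate 0 of the 14410 genes passed. DESeq2 and limma with no filter, over 29946 genes, moved the median of all genes to -0.12.

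Signs near 0 were not stable. Gbp5 was -0.093 (edgeR TMM), -0.085 (RLE), -0.087 (DESeq2), -0.17 (sex), -0.70 (females only) and -0.45 (mitochondrial share). Gbp6 was -0.11 (edgeR TMM), -0.11 (RLE), -0.11 (DESeq2) and -0.15 (females only). Irgm1 was 0.00036 (edgeR TMM), 0.0086 (RLE), 0.0079 (DESeq2), 0.012 (females only) and 0.37 (mitochondrial share). With each mouse left out the log2 fold change spanned -0.34 to 0.36 for Gbp5, -0.36 to 0.35 for Gbp6, -0.36 to 0.18 for Irgm1 and -0.17 to 1.16 for Iigp1, and the median of the 10 spanned -0.28 to 0.34. Gbp2, Gbp3 and Igtp stayed above 0 and Gbp7, Gbp8 and Gbp9 below 0 in every fit run, but their sizes varied. Over all fits the log2 fold change spanned 0.20 to 0.95 for Gbp2, 0.29 to 1.51 for Gbp3 and 0.04 to 0.98 for Igtp. It spanned -1.13 to -0.22 for Gbp7, -0.67 to -0.11 for Gbp8 and -1.06 to -0.42 for Gbp9. Gbp2 was lowest in females only, and Gbp3 with the mitochondrial share. The cause of these shifts was not tested. Gbp5 and Gbp6 rest on as few as 3 reads.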
